A study of Mus musculus with 12 samples.

Results

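Genes of the lysosome were followed across sorted populations of EGFR+ glioblastoma (GBM) cells from the mouse. The 41 genes were taken from a list of lysosomal hydrolases, lysosomal membrane proteins and the transcription factors of the TFEB family, matched by gene symbol, and all 41 were among the 18180 genes of the table. By role they were 9 cysteine proteases (8 cathepsins and legumain), 3 aspartic and serine peptidases, 12 glycan-degrading enzymes, 6 lipid-handling proteins with progranulin, 8 membrane proteins and 3 regulators.

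The lysosome is the acidic compartment in which cells break down proteins, glycans and lipids delivered by endocytosis, phagocytosis and autophagy. Cathepsins are its main proteases, glycosidases and lipases take apart sugars and lipids, and heavily glycosylated proteins such as LAMP1 line its membrane. TFEB, TFE3 and MITF are related basic helix-loop-helix factors that bind a short palindromic element, the CLEAR element, in the promoters of many lysosomal genes. Phagocytes such as microglia and macrophages carry a large lysosomal system, and several cathepsins, *Ctss* above all, together with *Cd68*, are widely used as markers of these cells in the brain.

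The tumors arose in adult mice of both sexes, on a mixed C57Bl/6J, 129S4, FVBN/J and Balb/cJ background to which the study's methods add SJL, that carry Cre-dependent human EGFR and luciferase transgenes and are bred to constitutive loss of Cdkn2a. Tumors were started by injecting a lentivirus that encodes Cre into the brain. Every population studied here comes from such a tumor and shares the Cdkn2a loss, and no normal brain cells serve as a control. From each of 3 end-stage tumors (T3, T4 and T5) EGFR+ cells were sorted in a pair of separate stainings, by PDGFRA into PDGFRA+ and PDGFRA- cells and by Galectin-1 into GAL1+ and GAL1- cells. That gave 4 populations with 3 samples each and 12 bulk RNAseq libraries, all untreated. The study calls the sorted cells CD45-, whereas no CD45 antibody is listed in its account of the sort, only those against EGFR, PDGFR and Galectin-1.

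The sorted cells were checked against their labels through the transcripts of the sort targets. *Pdgfra* had a mean of 10.30 log2 CPM (log2 of the counts scaled to a common library size) in PDGFRA+ and 8.70 in PDGFRA- cells, and *Lgals1*, which encodes Galectin-1, had a mean of 7.66 in GAL1+ and 6.38 in GAL1- cells. The PDGFRA+ and PDGFRA- libraries overlapped for *Pdgfra*, which was not called between them (limma adjusted p under 0.05), nor was any other gene. The study itself describes differentially expressed genes enriched in PDGFRA- cells, and its methods state no threshold for them. *Lgals1* was called higher in GAL1+ than in GAL1- cells without overlap, where 28.9% of all genes were called higher. The mean of *Pdgfra* was highest in GAL1- cells, above PDGFRA+ cells, and lowest in GAL1+ cells. It was called lower in GAL1+ than in GAL1- cells without overlap (log2 fold change −2.97), where 29.3% of all genes were called lower. The GAL1 sorts thus differed in *Pdgfra* as well as in *Lgals1*. *Egfr* was highest in GAL1- cells (10.51) and lowest in GAL1+ cells (8.41). The transgene is human, and whether its reads were counted on this mouse gene is not given in the sources used here. *Ptprc*, which encodes the leukocyte antigen CD45, was present in every library and rose in the opposite order, from a mean of 4.60 in GAL1- through 6.92 (PDGFRA+) and 7.46 (PDGFRA-) to 8.65 in GAL1+ cells. Of 12 pan-leukocyte genes, none was at or under the detection floor of 3 reads in any library, and their summed level ran from 6.68 to 8.04 log2 CPM for the GAL1- sort, 9.34 to 10.57 for PDGFRA+ cells, 9.58 to 11.66 for PDGFRA- cells and 11.49 to 11.93 for the GAL1+ sort. The populations therefore carried different amounts of leukocyte transcripts despite the CD45- label, and leukocyte values are given beside each comparison of populations below. The libraries held 9851175 to 24117541 recovered reads. The least abundant lysosomal gene in any library was *Ctsk*, with 28 reads in PDGFRA- T4 cells, so no member was at or under the floor. In bulk samples, fewer cells of a type and less RNA per cell cannot be told apart.

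Promoter stretches are printed for most of the members that hold the short element the TFEB family is known to bind, so that the regulators and these members can be read side by side. RefSeq promoter windows of GRCm38.p6, from 250 bases before to 50 bases after the gene start, were found for 37 of the 41 genes (not for *Asah1*, *Ctsb*, *Ctsh* and *Npc1*). Both strands were searched for the E-box CACGTG and for the CLEAR-type core TCACGTG, which contains the E-box. The E-box was found for 13 of 37 genes (35.1%) against 8.09% of 27025 genes with a window, and the CLEAR-type core for 11 of 37 (29.7%) against 4.29%. The full palindrome was found for 1 of 37 (*Cln3*, 2.7%) against 0.37%. *Lamp1* held the E-box at 4 places within its last bases before the start, at positions -61, -45, -28 and -15. In the lines below each stretch reads 5′ to 3′ along its gene, and capitals mark the E-box with the flanking base that completes the CLEAR-type core on either strand. The stretches of *Glb1* and *Naglu*, and a further stretch of *Ctsd* with the E-box at position -245, are not printed.
Lamp1 (chr8:13159087-13159160, + strand): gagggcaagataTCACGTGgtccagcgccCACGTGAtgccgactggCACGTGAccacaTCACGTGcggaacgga
Mcoln1 (chr8:3500435-3500492, + strand): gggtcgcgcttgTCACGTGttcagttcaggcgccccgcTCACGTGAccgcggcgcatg
Cln3 (chr7:126583339-126583397, - strand): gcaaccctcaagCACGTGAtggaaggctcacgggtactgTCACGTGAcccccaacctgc
Ctsa (chr2:164833758-164833786, + strand): tgTCACGTGAtgcagatgcTCACGTGAcc
Ctsd (chr7:142387907-142387938, - strand): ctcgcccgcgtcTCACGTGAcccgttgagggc
Gla (chrX:134601181-134601245, - strand): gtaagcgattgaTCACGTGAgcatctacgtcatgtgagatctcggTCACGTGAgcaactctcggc
Gaa (chr11:119267810-119267840, + strand): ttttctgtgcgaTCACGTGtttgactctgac
Sgsh (chr11:119355521-119355551, - strand): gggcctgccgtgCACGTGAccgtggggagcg
Lgmn (chr12:102439124-102439154, - strand): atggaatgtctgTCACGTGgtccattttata

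The first comparison asked how lysosomal transcripts differed between GAL1+ and GAL1- cells of the same tumors. Of the 41 genes, 40 were higher in GAL1+ cells (limma adjusted p under 0.05 with tumor as a block) and none was lower, where 28.9% of all 18180 genes were called higher and 29.3% lower. The median log2 fold change of the 41 genes was 2.11, against −0.03 over all genes, and the values ran from −0.07 (*Ids*) to 5.66 (*Ctss*). The groups did not overlap for 39 of 41 genes, where 30.1% of all genes had GAL1+ cells entirely above GAL1- cells. Within T3, T4 and T5 the medians were 2.25, 2.19 and 2.28. By size, 8 genes had a log2 fold change under 1, 11 genes one of 1 to 2, 13 genes one of 2 to 4 and 9 genes one of 4 or more. The marker lists moved with this comparison: all 12 pan-leukocyte genes (median 4.30), all 10 microglia genes (4.61) and all 10 macrophage and monocyte genes (5.66) were called higher in GAL1+ cells, while all 6 oligodendrocyte precursor genes were called lower (−2.92). The summed macrophage and monocyte level was 6.21 to 7.49 log2 CPM in GAL1- and 12.18 to 12.48 in GAL1+ cells. Of these 3 lists, *Fcrls* of the microglia list was the one gene at or under the floor in a GAL1- library. All 8 endothelial genes were also called higher (median 2.44), and 1 of 8 measured T and NK cell genes was called (median of the list −0.32). The part of these cells in the lysosomal differences was not tested. Without *Ctss* and *Cd68*, which are themselves phagocyte markers, 38 of 39 genes were called higher, with a median of 2.02. That count is no test of the part of phagocytes, since only these genes were left out. *Ctsc*, *Ctsh*, *Ctsz*, *Lgmn* and *Ctsd*, which remained, also exceeded the pan-leukocyte median of 4.30.

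**Figure D1:**
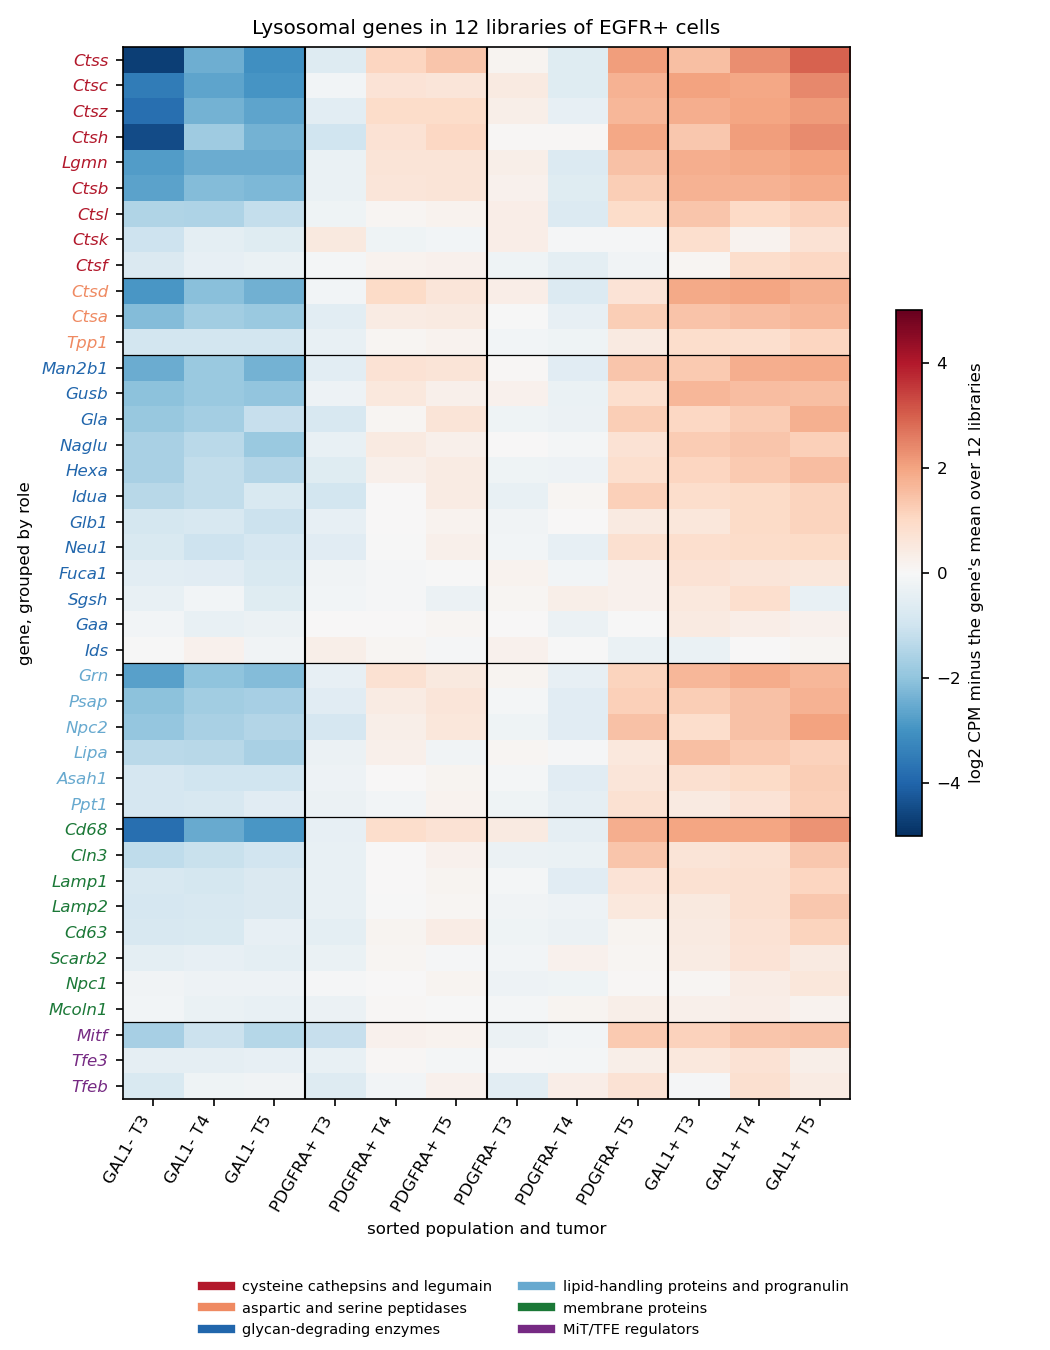
Heat map of the 41 lysosomal genes (rows, grouped by role, names coloured by role) in the 12 libraries (columns, by sorted population and tumor), coloured by log2 CPM minus the gene's mean over the 12 libraries. GAL1- libraries are lowest and GAL1+ libraries highest for most rows, the PDGFRA sorts lie between, and *Ids* shows little contrast.

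All 9 genes of the group that joins the cysteine cathepsins with legumain were higher in GAL1+ cells, with a median log2 fold change of 4.47. *Ctss* encodes cathepsin S, which trims the invariant chain for antigen presentation by MHC class II. Its level was 5.29, 7.55 and 6.94 log2 CPM in GAL1- cells of T3, T4 and T5, 9.34, 11.05 and 11.39 in PDGFRA+ cells, 10.11, 9.39 and 12.08 in PDGFRA- cells, and 11.48, 12.33 and 12.96 in GAL1+ cells. The GAL1- libraries lay below every other library, with T3 the lowest, and the PDGFRA- library of T5 reached the range of the GAL1+ libraries. The log2 fold change of GAL1+ over GAL1- cells was 5.66 (SE 0.52), or 50.6-fold, with a limma adjusted p of 4.76e-05.

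*Ctsc* encodes cathepsin C, which activates granule serine proteases of leukocytes. It stood at 4.28, 5.13 and 4.84 log2 CPM in GAL1- cells, 7.64, 8.45 and 8.38 in PDGFRA+ cells, 8.24, 7.17 and 9.50 in PDGFRA- cells, and 9.78, 9.70 and 10.17 in GAL1+ cells. Each GAL1+ library exceeded all others, and the fold change was 5.14 on the log2 scale (SE 0.42, limma adjusted p = 3.93e-05). *Ctsz*, a carboxypeptidase, was at 4.32, 5.73 and 5.48 in GAL1- cells against 9.93, 10.06 and 10.23 in GAL1+ cells, with 7.58, 9.01 and 9.03 in PDGFRA+ and 8.38, 7.69 and 9.76 in PDGFRA- cells. Its log2 fold change was 4.90 (SE 0.43, limma adjusted p = 4.26e-05), with no overlap between the GAL1 sorts. *Ctsh*, an aminopeptidase, was at 1.07, 3.75 and 3.16 in GAL1- cells, 4.53, 6.25 and 6.56 in PDGFRA+ cells, 5.57, 5.59 and 7.47 in PDGFRA- cells, and 6.87, 7.63 and 7.88 in GAL1+ cells. GAL1- T3 was the lowest library for this gene, and the log2 fold change was 4.80 (SE 0.44, limma adjusted p = 4.77e-05), or 4.30 without T3.

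*Ctsb*, encoding the abundant cathepsin B, was at 7.24, 7.74 and 7.68 log2 CPM in GAL1- cells and at 11.64, 11.66 and 11.79 in GAL1+ cells. The PDGFRA+ libraries held 9.59, 10.52 and 10.57 and the PDGFRA- libraries 10.12, 9.31 and 11.16, so both lay between the GAL1 sorts. The log2 fold change between the GAL1 sorts was 4.15 (SE 0.34, limma adjusted p = 3.93e-05). Legumain (*Lgmn*), an asparaginyl endopeptidase that processes other cathepsins, rose by 4.47 (SE 0.39) and *Ctsl* by 2.59 (SE 0.27). The smallest changes in the group were those of *Ctsk*, best known from bone-resorbing osteoclasts, at 1.30 (SE 0.27), and *Ctsf*, at 1.15 (SE 0.20). Reads of *Ctsl* are less certain, since 26.8% of its exon bases in GENCODE M21 are shared with other gene models and the use of strand in counting is not given in the sources used here.

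Among the aspartic and serine peptidases, all 3 were higher in GAL1+ cells, with a median of 3.45. *Ctsd*, encoding the aspartic protease cathepsin D, was at 7.29, 8.12 and 7.80 log2 CPM in GAL1- cells and at 12.11, 12.19 and 11.97 in GAL1+ cells, with 10.05, 11.16 and 10.82 in PDGFRA+ and 10.52, 9.50 and 10.88 in PDGFRA- cells. The 3 GAL1- libraries were again the lowest and the 3 GAL1+ libraries the highest, and the log2 fold change was 4.36 (SE 0.36, limma adjusted p = 3.93e-05). The exons of *Ctsd* share 34.4% of their bases with another gene model. *Ctsa*, which protects glycosidases in a complex with them, rose by 3.45 (SE 0.30), and *Tpp1*, a tripeptidyl peptidase mutated in a childhood neuronal ceroid lipofuscinosis, by 1.87 (SE 0.15).

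Of the glycan-degrading enzymes, 11 of 12 were called higher in GAL1+ cells, with a median of 1.96. *Man2b1* (3.90, SE 0.40), an alpha-mannosidase, and *Gusb* (3.53, SE 0.27), the beta-glucuronidase, rose most. *Gla*, *Naglu* and *Hexa* rose by 2.95, 2.89 and 2.74, and *Idua*, *Glb1*, *Neu1* and *Fuca1* by 2.11, 1.81, 1.78 and 1.24. The remaining 3 genes were among the 5 with the smallest values of all members. *Ids*, the iduronate sulfatase, was the one gene not called, at 5.39, 5.64 and 5.25 log2 CPM in GAL1- cells, 5.74, 5.51 and 5.37 in PDGFRA+ cells, 5.64, 5.42 and 5.10 in PDGFRA- cells, and 5.10, 5.46 and 5.52 in GAL1+ cells. The groups overlapped, and the log2 fold change was −0.07 (SE 0.17, limma adjusted p = 0.768). *Sgsh*, the heparan sulfamidase, was at 2.90, 3.13 and 2.67 in GAL1- cells and 3.79, 4.08 and 2.87 in GAL1+ cells, where the T5 library of GAL1+ cells fell within the GAL1- range. Its log2 fold change was 0.68 (SE 0.22, limma adjusted p = 0.023), it kept its call in 10 of 13 alternatives, and 21.6% of its exon bases are shared with another gene. *Gaa*, the acid alpha-glucosidase that degrades glycogen, was at 6.98, 6.72 and 6.82 in GAL1- cells and 7.55, 7.43 and 7.31 in GAL1+ cells, a log2 fold change of 0.59 (SE 0.11, limma adjusted p = 0.00132) without overlap.

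Of the lipid-handling proteins, all 6 were higher in GAL1+ cells, with a median of 2.94. *Grn*, encoding progranulin, which is secreted and taken to the lysosome, was at 5.78, 6.48 and 6.33 log2 CPM in GAL1- cells and 10.13, 10.33 and 10.16 in GAL1+ cells and rose by 4.01 (SE 0.33). Prosaposin (*Psap*), the precursor of the saposins that present sphingolipids to hydrolases, rose by 3.29 (SE 0.31), and *Npc2*, a cholesterol carrier of the lysosomal lumen, by 3.12 (SE 0.32). *Lipa*, the acid lipase, *Asah1*, the acid ceramidase, and *Ppt1*, a thioesterase, rose by 2.76, 1.93 and 1.51.

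All 8 membrane proteins were called higher in GAL1+ cells, with a median of 1.54. *Cd68*, a LAMP-family protein of phagocytes, had the largest value. It was at 2.23, 3.49 and 3.11 log2 CPM in GAL1- cells, 5.60, 6.89 and 6.73 in PDGFRA+ cells, 6.47, 5.56 and 7.82 in PDGFRA- cells, and 7.97, 7.97 and 8.26 in GAL1+ cells. The change was 5.12 on the log2 scale (SE 0.45, limma adjusted p = 4.34e-05), with the PDGFRA- library of T5 close below the GAL1+ libraries. *Lamp1*, the structural membrane protein with 4 CACGTG matches in its promoter, was at 7.66, 7.61 and 7.76 in GAL1- cells, 8.09, 8.49 and 8.60 in PDGFRA+ cells, 8.39, 7.90 and 9.17 in PDGFRA- cells, and 9.23, 9.27 and 9.54 in GAL1+ cells. The GAL1+ libraries stood above all others, and the log2 fold change was 1.67 (SE 0.21, limma adjusted p = 0.000152). *Lamp2* and *Cd63* rose by 1.66 and 1.42, *Cln3* by 2.02 and *Scarb2*, the receptor that carries glucocerebrosidase to the lysosome, by 0.96. The cholesterol exporter *Npc1* was at 7.03, 6.95 and 6.96 in GAL1- cells and 7.33, 7.58 and 7.77 in GAL1+ cells (log2 fold change 0.57, SE 0.11, limma adjusted p = 0.00167). The calcium channel *Mcoln1* was at 4.53, 4.31 and 4.27 against 4.91, 5.0 and 4.84 (0.55, SE 0.15, limma adjusted p = 0.0101). Both differed without overlap, although *Mcoln1* kept its call in 11 of 13 alternatives.

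**Figure D2:**
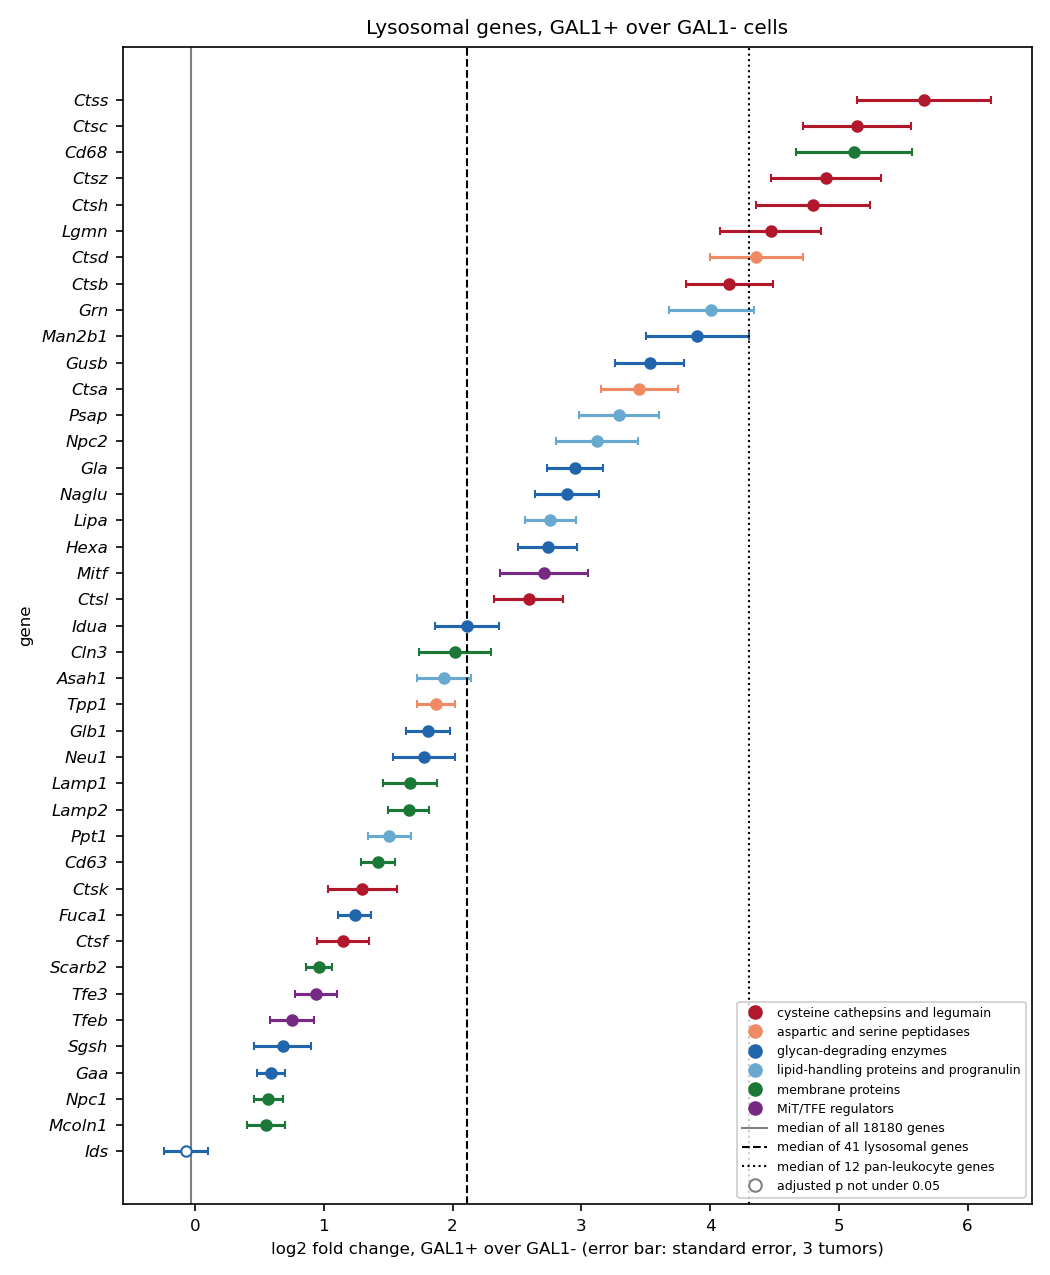
Log2 fold change of GAL1+ over GAL1- cells for each of the 41 genes (points coloured by role, open point not called), with vertical lines at the medians of all genes (−0.03), of the 41 genes (2.11) and of 12 pan-leukocyte genes (4.30). Bars are standard errors of the limma fit, whose estimate of the spread is shared by all 12 libraries of the 4 populations. *Ctss*, *Ctsc*, *Cd68*, *Ctsz*, *Ctsh*, *Lgmn* and *Ctsd* lie to the right of the leukocyte line, while *Ids*, *Mcoln1*, *Npc1*, *Gaa* and *Sgsh* lie nearest to 0.

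All 3 regulators were higher in GAL1+ cells, with a median of 0.94. *Mitf* was at 3.14, 3.73 and 3.37 log2 CPM in GAL1- cells, 3.63, 5.02 and 4.95 in PDGFRA+ cells, 4.51, 4.66 and 6.11 in PDGFRA- cells, and 5.96, 6.18 and 6.24 in GAL1+ cells. It rose by 2.71 (SE 0.34, limma adjusted p = 0.000143) with no overlap. *Tfe3* was at 4.84, 4.87 and 4.90 in GAL1- cells and 5.82, 6.02 and 5.60 in GAL1+ cells, and rose by 0.94 (SE 0.16, limma adjusted p = 0.000835). *Tfeb* was at 3.71, 4.26 and 4.29 in GAL1- cells and 4.39, 5.25 and 4.88 in GAL1+ cells, where the lowest GAL1+ value exceeded the highest GAL1- value by a small margin, and rose by 0.75 (SE 0.17, limma adjusted p = 0.00465). *Tfeb* kept its call in 11 of 13 alternatives. A transcript level says nothing of whether these factors are in the nucleus. The genes with TCACGTG in the promoter window had a median log2 fold change of 2.02, from 0.55 (*Mcoln1*) to 4.47 (*Lgmn*), and the genes with a window but without it had a median of 2.35, from −0.07 (*Ids*) to 5.66 (*Ctss*). Of the genes with TCACGTG, the 6 with more than 1 match, *Lamp1*, *Mcoln1*, *Cln3*, *Gla*, *Ctsa* and *Ctsd*, rose by 1.67, 0.55, 2.02, 2.95, 3.45 and 4.36.

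A second sequence was looked for after the values had been seen, the core GAGGAAGT that the myeloid factor PU.1 is known to bind. It was found on either strand for 4 of 37 genes (10.8%; *Ctsc*, *Ctss*, *Gla* and *Gusb*), against 3.69% of genes with a window. The stretches of the 2 genes among them with the largest change, *Ctss* and *Ctsc*, are shown with the reverse complement of the core in capitals.
Ctss (chr3:95526772-95526793, + strand): aaatgaaagttcACTTCCTCat
Ctsc (chr7:88277922-88277953, + strand): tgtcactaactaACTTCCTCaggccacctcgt

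Levels compared between genes need a correction for length, and were expressed as log2 CPM per kb of exon. The length was that of all annotated exons of a gene joined, which can exceed the length of the transcripts present. Ranks between genes are therefore approximate. In GAL1- cells the highest levels on this scale were those of *Psap* (7.17), *Ctsd* (6.5), *Lamp1* (6.26), *Ctss* (6.15) and *Lgmn* (5.32). In GAL1+ cells they were those of *Ctss* (11.82), *Ctsd* (10.86), *Psap* (10.46), *Lgmn* (9.80) and *Ctsz* (9.55). The order of the 41 genes therefore shifted. *Cd68* moved from rank 24 to rank 9 and *Ctsc* from 28 to 10, while *Gaa* moved from rank 9 to rank 22 and *Lamp1* from 3 to 8. The summed level of the 41 genes was 2350 to 2940 CPM in the GAL1- libraries and 24500 to 33400 CPM in the GAL1+ libraries, with PDGFRA+ libraries at 6900 to 14000 and PDGFRA- libraries at 6400 to 21000. The GAL1 sorts were each narrow, whereas the PDGFRA- libraries spread widely, with T4 lowest and T5 highest.

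**Figure D3:**
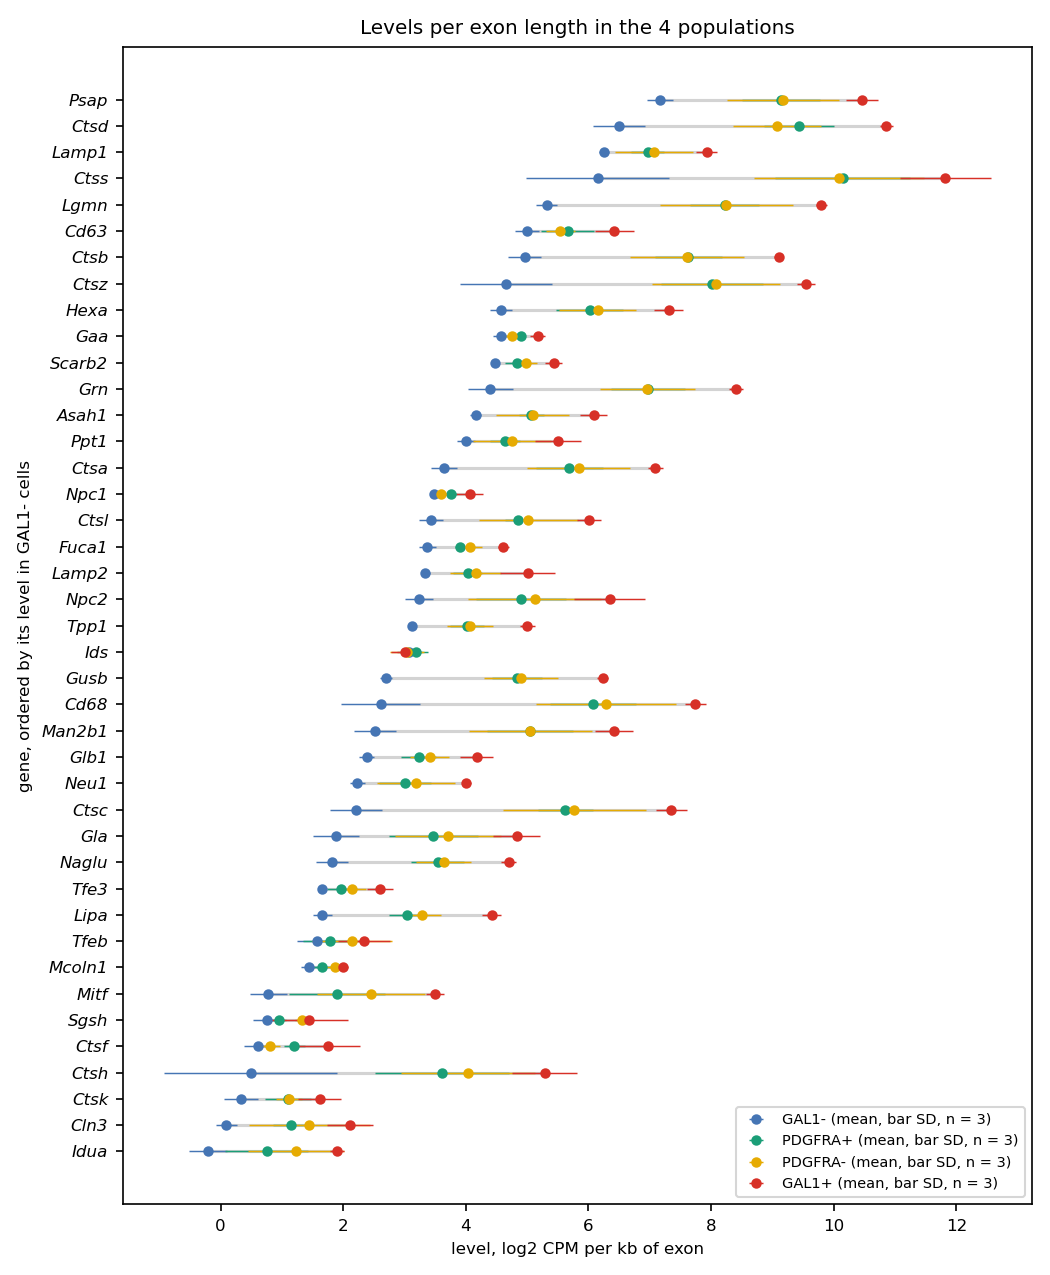
Level of each gene per exon length (log2 CPM per kb, mean of 3 tumors, bars SD) in the 4 populations, with genes ordered by their level in GAL1- cells. GAL1+ points lie furthest to the right for 40 of 41 genes, and the points of PDGFRA+ and PDGFRA- cells lie close together.

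Across the 4 populations, 32 of the 41 genes had means in the order GAL1-, PDGFRA+, PDGFRA-, GAL1+ from lowest to highest, an order that 25.9% of all genes showed. For 8 genes (7.42% of all genes) the PDGFRA sorts were swapped, and *Ids* followed another order. The neighbours PDGFRA+ and PDGFRA- were not distinguished for any gene. The same order held for the leukocyte marker *Ptprc*.

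The second comparison was PDGFRA+ against PDGFRA- cells. None of the 41 genes was called at a limma adjusted p under 0.05 and none at an unadjusted p under 0.05, where 0% of all genes were called after adjustment and 6.02% higher and 5.74% lower before it. The median log2 fold change was −0.13, against −0.02 over all genes, and 9 of 41 values were above 0. The tumors went in different directions. In T3, 37 of 41 genes were lower in PDGFRA+ cells (median −0.39), in T5 36 were lower (median −0.56), and in T4 34 were higher (median 0.42). The 12 pan-leukocyte genes moved the same way, with medians of −0.84 in T3, 1.14 in T4 and −1.15 in T5, and their part in the lysosomal differences was not tested. Leaving out the PDGFRA- library of T5, the one with the highest summed lysosomal level among the PDGFRA- libraries, turned the median to 0.13, and the median was 0.01 without T3, 0.11 without T5 and −0.44 without T4.

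The largest values in this comparison were those of *Mitf*, at −0.56 (SE 0.34, limma adjusted p = 0.54), and *Idua*, at −0.47 (SE 0.25, limma adjusted p = 0.496). *Idua*, the iduronidase, was at 2.09, 3.0 and 3.39 log2 CPM in PDGFRA+ and 2.63, 3.10 and 4.17 in PDGFRA- cells, lower in the PDGFRA+ cells of every tumor but with overlapping groups. *Ctsh* had a value of −0.43 (SE 0.44, limma adjusted p = 0.73) and *Ctsd* one of 0.37 (SE 0.36, limma adjusted p = 0.719). *Ctsf*, a cathepsin expressed in many tissues, was at 3.34, 3.62 and 3.64 in PDGFRA+ and 3.21, 2.94 and 3.25 in PDGFRA- cells, a difference of 0.40 (SE 0.20, limma adjusted p = 0.468). *Sgsh* was at 3.13, 3.19 and 2.95 against 3.36, 3.56 and 3.48, a difference of −0.37 (SE 0.22, limma adjusted p = 0.528). *Ctsf* and *Sgsh* were the 2 genes whose PDGFRA+ and PDGFRA- libraries did not overlap, where 6.94% of all genes did not. The directions of *Ctsb* (0.03) and *Ctsd* rested on T4: without that tumor their values were −0.56 and −0.27.

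**Figure D4:**
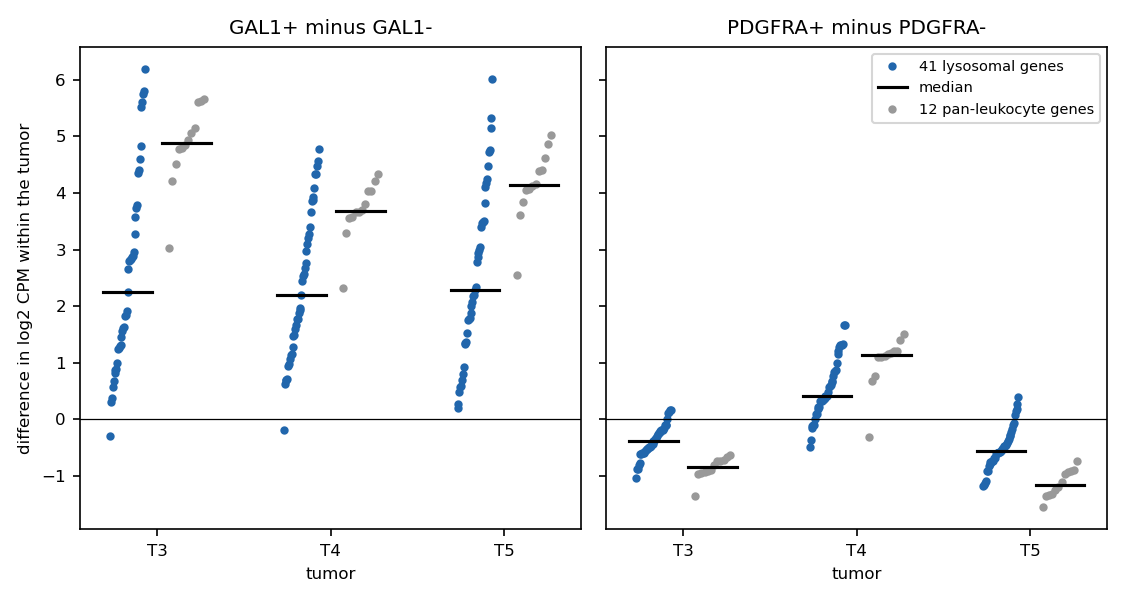
Difference in log2 CPM within each tumor (T3, T4 and T5) for the 41 lysosomal genes and for 12 pan-leukocyte genes, GAL1+ minus GAL1- on the left and PDGFRA+ minus PDGFRA- on the right, with black lines at the medians. On the left all medians are above 0 in the 3 tumors, and on the right T4 lies above 0 while T3 and T5 lie below it for both sets.

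The third comparison set PDGFRA+ against GAL1+ cells, the marked populations of the 2 stainings. Of the 41 genes, 35 were lower in PDGFRA+ cells and none was higher, where 17% of all genes were called lower and 20.9% higher. The median log2 fold change was −1.14 (0.01 over all genes), and the medians within T3, T4 and T5 were −1.62, −0.94 and −1.08. The largest values were those of *Ctsc* (−1.73, SE 0.42, limma adjusted p = 0.0119), *Ctsh* (−1.68, SE 0.44, limma adjusted p = 0.0164), *Ctss* (−1.66, SE 0.52, limma adjusted p = 0.0317), *Cd68* (−1.66, SE 0.45, limma adjusted p = 0.0188) and *Mitf* (−1.59, SE 0.34, limma adjusted p = 0.00684). *Ctsk*, *Gaa*, *Sgsh*, *Ids*, *Npc1* and *Mcoln1* were not called. All 9 genes of the lipid and peptidase groups other than cysteine cathepsins were called lower, as were *Tfeb* (−0.56), *Tfe3* (−0.64) and *Mitf*. The 12 pan-leukocyte genes had a median of −1.56, with 11 called lower, and their part was not tested. The count depended on the samples: without T3 it was 6 genes (11.6% of all genes called), and without T4 or T5 it was 33 or 30 (26.7% or 23.5%).

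PDGFRA- cells also lay below GAL1+ cells, with 31 of 41 genes called lower and none higher, where 6.91% of all genes were called lower and 13.2% higher. The median was −0.99, with *Ctsd* (−1.79, SE 0.36, limma adjusted p = 0.0137) and *Ctss* (−1.72, SE 0.52, limma adjusted p = 0.0445) at the extreme and no call for *Tfeb* (−0.20), *Tfe3* (−0.46) or *Mitf* (−1.03). Within the tumors the medians were −1.07, −1.37 and −0.48, the smallest in T5, and those of the pan-leukocyte genes, of which 4 of 12 were called lower (median −1.30), were −1.27, −2.26 and −0.31. The count was 2 genes without T3 (4.33% of all genes called), 0 without T4, when no gene of the table was called, and 32 without T5 (20.1%). PDGFRA+ cells lay above GAL1- cells, with 27 of 41 genes called higher and none lower, where 8.26% of all genes were called higher and 0.011% lower. The median was 1.07, *Ctss* had the largest value (4.00, SE 0.52, limma adjusted p = 0.00219), and *Lamp1* (0.71), *Scarb2* (0.37), *Ppt1* (0.64) and the 3 regulators were among those not called. All 12 pan-leukocyte genes (median 2.78), 9 of 10 macrophage and monocyte genes (4.02), 9 of 10 microglia genes (2.95) and 7 of 8 endothelial genes (2.12) were also called higher, and their part in the lysosomal differences was not tested. The count of members fell to 0 without T3, when no gene of the table was called. The comparisons share libraries, since the GAL1+ cells enter 3 of them, and their counts are not independent.

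Other genes of the lysosome were taken from lists by function. Of 20 subunits of the V-ATPase, the proton pump that acidifies the lysosome, 15 were called higher and 3 lower in GAL1+ than in GAL1- cells, with a median log2 fold change of 0.81. The shares of all 18180 genes were 28.9% higher and 29.3% lower. The subunit *Atp6v0d2*, known from macrophages and osteoclasts, had 0, 3 and 2 reads in GAL1- and 79, 89 and 209 reads in GAL1+ cells of T3, T4 and T5 (limma adjusted p = 0.000167), and no fold is given since the GAL1- libraries were at or under the floor. *Atp6v0e2*, a subunit isoform, was at 6.11, 5.80 and 5.99 log2 CPM in GAL1- and 4.57, 4.02 and 3.07 in GAL1+ cells, and fell by 2.08 (SE 0.30, limma adjusted p = 0.000321).

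Of 27 further lysosomal hydrolases, 22 were called higher and 2 lower, with a median of 1.55, where 28.9% of all genes were called higher and 29.3% lower. *Lyz2*, the lysozyme of myeloid cells and also a gene of the macrophage list, rose most, by 5.95 (SE 0.45), and *Hyal2*, a hyaluronidase, fell by 0.98 (SE 0.22). Of 20 further membrane and transport proteins, 16 were called higher and 3 lower (median 0.87), led by *Slc11a1*, a metal transporter of phagosomes that rose by 5.81 (SE 0.51), while *Tspan7* fell by 1.01 (SE 0.26). The machinery that sorts hydrolases by mannose 6-phosphate had 5 of 7 genes called higher and 1 lower (median 1.38). *Nagpa*, the uncovering enzyme, rose by 2.45 (SE 0.36), and *Gnptg*, a subunit of the phosphotransferase that starts the tag, fell by 0.66 (SE 0.13).

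Nutrient sensing at the lysosome, through the Ragulator, the Rag GTPases and mTORC1, was the one of these lists with the median closest to that of all genes. It had 8 of 16 genes called higher, 3 lower and a median of 0.30, where 28.9% of all genes were called higher and 29.3% lower. *Tfec*, the fourth member of the TFEB family and largely myeloid, had 0, 8.5 and 1 reads in GAL1- and 94, 86 and 129 in GAL1+ cells (limma adjusted p = 0.000231). *Rragb*, a Rag GTPase, fell by 2.56 (SE 0.39, limma adjusted p = 0.000454). All 3 measured cystatins, the inhibitors of cysteine cathepsins, were called higher (median 2.38), and *Cst7*, a cystatin of leukocytes and activated microglia, rose by 5.69 (SE 0.57). In PDGFRA+ against PDGFRA- cells no gene of these 6 lists was called, nor any other gene of the table, with list medians from −0.11 to −0.04.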

How the data were processed

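RNA came from EGFR+ cells of 3 mouse tumors sorted into 4 populations (12 libraries, SMARTer stranded total RNA kit). Per the labels and methods, the authors trimmed reads with fastp, aligned them with STAR to mm39, counted exons with featureCounts (multi-mapping reads as fractions), filtered low genes and normalized with TMM and voom. The deposited table holds the authors' log2 CPM for 18180 genes. Reads were recovered from the lowest value of each library. Of the recovered values, 41.3% to 59.2% per library were whole within 0.01, so no count test was run, and the floor of 3 reads covers counting error only. These reads served for voom weights as an alternative.

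A linear model (limma), with population and tumor terms, all 12 samples, a mean-variance trend and Benjamini-Hochberg adjustment over all genes, gave each comparison; the main threshold is an adjusted p under 0.05. Tumor numbers in the sample titles pair the sorts: deviations from the group means correlated at 0.486 on average between sorts of one tumor (18 pairs, 0.14 to 0.662). All 41 genes were named by role. Full statistics were given for the 5 largest differences in the main comparisons, the 5 smallest between the GAL1 sorts, the regulators, *Lamp1*, *Ctsb* and *Ctsd*, and for the largest called change each way in each further list. Members and lists were chosen with earlier results of these data known. The script was tested on simulated data. Exon lengths are from GENCODE M21 and promoters from RefSeq, both GRCm38. Each member was recomputed under 13 alternatives. A further allele of the mouse model is not reported here.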

Additional observations from a re-analysis of the deposited data

How the results depend on the processing

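The fits without the tumor pairing (no replicate block) called 38 members in GAL1+ against GAL1-, 22 in PDGFRA+ against GAL1+, 5 in PDGFRA- against GAL1+ and 17 in PDGFRA+ against GAL1- cells, against 40, 35, 31 and 27 with the block. In the same order, 46.2%, 17.3%, 3.99% and 3.37% of all genes were called, against 58.2%, 38%, 20.1% and 8.27% with the block. Leaving out each tumor in turn gave 37 to 39 members in GAL1+ against GAL1- (median 2.08 to 2.22) and 6 to 33 in PDGFRA+ against GAL1+. It gave 0 to 32 in PDGFRA- against GAL1+ and 0 to 20 in PDGFRA+ against GAL1-. The shares of all genes called were 44.4% to 46.6%, 11.6% to 26.7%, 0% to 20.1% and 0% to 6.19%, in the same order. The lowest counts of members came without T4 in GAL1+ against GAL1- and in PDGFRA- against GAL1+, and without T3 in the others. Among the members with full statistics in the comparison concerned, the sign of *Ids* turned in GAL1+ against GAL1- (0.05 without T3). In PDGFRA+ against PDGFRA-, *Lamp1* turned to 0.01 without T3, 0.15 without T5 and 0.17 without the PDGFRA- library of T5. *Ctsb* turned to −0.56 and *Ctsd* to −0.27 without T4. The other extremes kept their sign: −0.24 for *Ids* without T5, −0.43 for *Lamp1* without T4, 0.42 for *Ctsb* without the PDGFRA- library of T5, and 0.80 for *Ctsd* without T3. None of these was called. *Ctss*, *Ctsc*, *Ctsz* and *Cd68*, with full statistics in other comparisons, also turned in PDGFRA+ against PDGFRA-. Over all 41 members, 25 turned sign under at least 1 alternative in PDGFRA+ against PDGFRA-, as did *Ids* in the 4 other comparisons and *Sgsh* in PDGFRA- against GAL1+; none was called there in any fit. Without the PDGFRA- library of T5, 36 members were called in PDGFRA+ against GAL1+ (42.2% of all genes) and 36 in PDGFRA- against GAL1+ (32.1%). The cause was not tested. Median centring moved the median of all genes to −0.15 in PDGFRA+ against GAL1+, where 39 members were then called lower with a median of −1.30, and to −0.11 in PDGFRA- against GAL1+ (35 lower, median −1.13). In PDGFRA+ against GAL1- it stood at −0.13 under centring (22 higher) and −0.15 under quantile normalization (24 higher). The shares of all genes called were 41%, 22.5% and 6.99% in these comparisons under centring, and 6.24% in the last under quantile normalization. Under each of the 13 alternatives no member was called in PDGFRA+ against PDGFRA-, nor was any other gene of the table. Every member was above the floor in each library. The GAL1- libraries held 21728280 to 24117541 recovered reads and the GAL1+ libraries 13788453 to 17486645, and the part of depth was not tested.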
